A study of Cicer arietinum with 5 samples.

Results

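Windows of 500 bp that carried methylcytosines in CG, CHG and asymmetric contexts at once were identified in the seed methylome of Himchana 1, a small-seeded chickpea (Cicer arietinum) cultivar. Whole genome bisulphite sequencing had been done on genomic DNA of seeds at mid-maturation (S5, 3 replicates) and at late-embryogenesis (S3, 2 replicates), both harvested from plants of the same genotype in the field, and no treatment is named for either stage. Bisulphite converts unmethylated cytosine, which is then read as T, whereas methylated cytosine is still read as C. Each biological replicate was a pool of seeds, and no separation of embryo, endosperm and seed coat is described. A different methylation level in the same cells and a different mix of tissues can therefore not be told apart anywhere below.

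The chromosomes Ca1 to Ca8 of kabuli chickpea version 1 were cut into 694489 separate windows counted from base 1. A window was kept when it held at least 4 CG, 4 CHG and 20 asymmetric methylcytosines that were each listed in all 5 libraries. In total, 30925 windows met the rule, 4.45% of all windows and 15.5 Mb of sequence, and they are called triple-context windows here. They formed 7.43% of the 416151 windows with any methylcytosine listed in every library. The windows were chosen by the methylcytosine calls themselves, that is by read coverage and methylation level in all 5 libraries, so the numbers of methylcytosines, and their being methylated in both stages, describe the windows and are not results about them.

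In plants, DNA methylation is kept up by a separate enzyme system for each context. In Arabidopsis, MET1 copies CG methylation to the new strand after replication, CMT3 acts on CHG sites (H is A, C or T), and CHH sites, which have no symmetric partner to copy from, are methylated anew by DRM2 guided by small RNAs or by CMT2 in compact heterochromatin. Dense methylation in every context is typical of silenced transposable elements and repeats, whereas the bodies of expressed genes usually carry CG methylation alone. The deposited files name no context, so it was inferred from methylcytosines listed on the opposite strand. CG was assigned where the base directly 3′ had its opposite strand cytosine listed in any library, and CHG where this held for the base after it but not for the adjacent one. The asymmetric class is the rest, and besides CHH it includes CG and CHG sites called on 1 strand only. No annotation or genome of this build was used, so neither genes nor transposable elements are named and no sequence is shown.

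Methylcytosine lists held 26011939 to 27776981 positions in S5 libraries and 24562004 and 25783457 in S3 libraries, with a median coverage of 12 to 14 reads. Within triple-context windows the median coverage was 18.3, 12.8 and 18.3 reads in S5 replicates 1, 2 and 3 and 18.6 and 18.95 reads in S3 replicates 1 and 2. In the other windows it was 15.6, 13.7 and 14.0 reads at S5 and 14.6 and 15.4 reads at S3. S5 replicate 2 was thus the shallowest library, and the only one that was shallower inside triple-context windows than outside them. A methylcytosine of low level is listed less readily at low depth, so S5 replicate 2 is given separately wherever the number of listed cytosines matters.

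A triple-context window held a median of 10 CG (4 to 119), 14 CHG (4 to 61) and 25 asymmetric methylcytosines (20 to 123) common to all libraries. Together these windows held 12.2% of the common CG, 21.04% of the common CHG and 28.3% of the common asymmetric methylcytosines of the 8 chromosomes. The asymmetric limit decided most of the choice. Of 42459 windows with 20 or more asymmetric methylcytosines, 72.8% also met the CG and CHG limits, while only 21.2% of the 146107 windows that met the CG and CHG limits were rich enough in asymmetric ones. At the border, 3494 windows had exactly 20 asymmetric methylcytosines and 3954 windows that met both other limits had 19. Their levels were close on both sides, at 94.1% and 94.2% in CG, 88.1% on each side in CHG, and 50.65% and 50.96% in asymmetric context.

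At the methylcytosines listed in all 5 libraries, level in triple-context windows was nearly complete in CG, high in CHG and intermediate in asymmetric context in every library. Cytosines that were not listed do not enter these levels. Of the asymmetric cytosines listed in any library, only 34.2% were listed in all 5, so the levels do not describe all asymmetric sites. Over single windows, the mean of the 5 libraries had a median of 94.7% in CG (10th to 90th percentile 91.0% to 96.5%), 89.4% in CHG (81.2% to 93.7%) and 50.4% in asymmetric context (40.9% to 59.9%). Asymmetric levels were the most variable among windows and ran over a range of 9.90% to 93.4%. Levels in the 3 contexts were only loosely related among the 30925 windows (Pearson r = 0.325 for CG with CHG, 0.195 for CHG with asymmetric and 0.191 for CG with asymmetric), which share libraries and depth. Asymmetric level was more closely related to coverage (r = −0.659 with log2 coverage), the windows with more reads having the lower level. No listed cytosine had fewer than 3 methylated reads, so at low depth only higher levels could be listed. How much of the relation comes from the calls was not tested.

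The main comparison asked how methylation in these windows differed at mid-maturation from late-embryogenesis. Mean CG level was 94.1%, 93.7% and 94.5% in S5 replicates 1, 2 and 3, and 94.1% and 93.8% in S3 replicates 1 and 2. The stages overlapped, at 94.1% ± 0.414 (SD, n = 3) for S5 and 94.0% ± 0.213 (SD, n = 2) for S3. The difference of 0.117 percentage points was smaller than the spread between replicates (two-sided exact permutation p = 0.8).

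CHG level was lower at S5. It was 87.2%, 86.4% and 88.0% in the S5 libraries and 89.7% and 89.3% in the S3 libraries, so that every S5 library lay below both S3 libraries. The means were 87.2% ± 0.839 (SD, n = 3) at S5 and 89.5% ± 0.273 (SD, n = 2) at S3, a difference of −2.32 percentage points (exact permutation p = 0.1).

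Asymmetric level differed in the other direction and by a larger amount. It was 52.4%, 50.9% and 54.3% in the S5 libraries and 47.8% and 46.9% in the S3 libraries, with every S5 library above both S3 libraries. The means were 52.5% ± 1.70 (SD, n = 3) at S5 and 47.4% ± 0.632 (SD, n = 2) at S3, a difference of 5.15 percentage points (exact permutation p = 0.1). With 3 libraries against 2, the smallest p this design allows is 0.1, so no comparison of library means could pass 0.05. Cytosines that lost or gained nearly all methylation are not listed at one of the stages and are missing from these means.

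**Figure D1:**
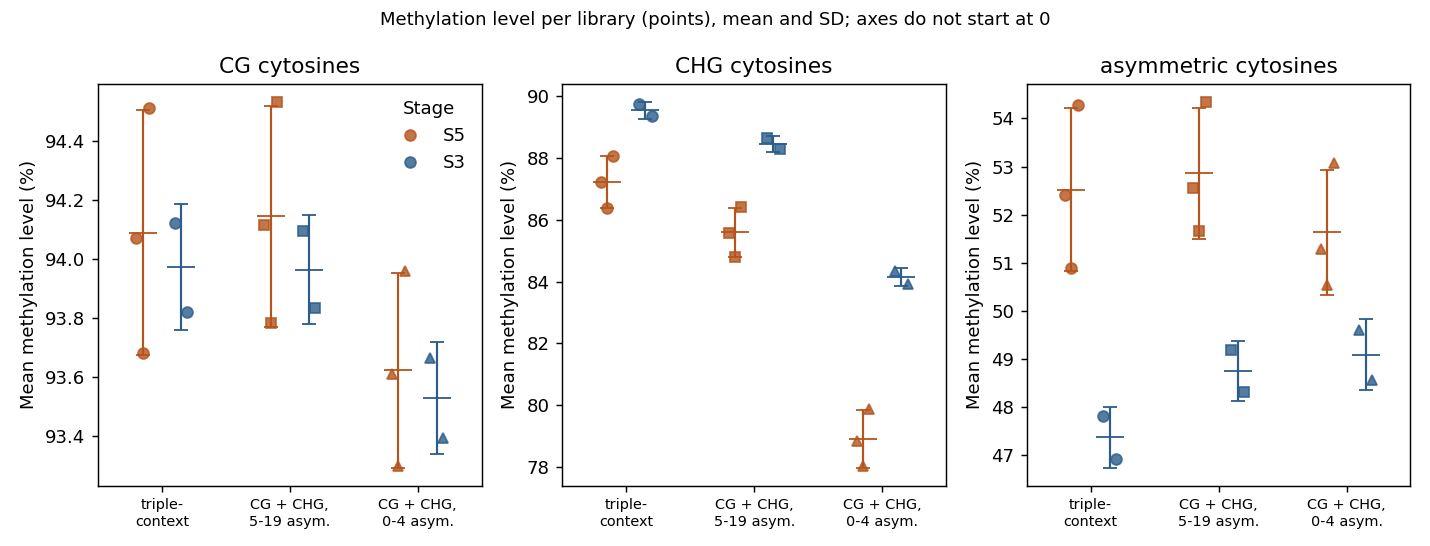
Mean methylation level (%) per library in CG, CHG and asymmetric context (panels), for triple-context windows and for windows that met the CG and CHG limits but held 5 to 19 or 0 to 4 asymmetric methylcytosines. Points are libraries (S5 left, S3 right), horizontal bars are stage means and whiskers are SD (n = 3 for S5, n = 2 for S3). The y axes do not start at 0. In CHG the S5 points lie below the S3 points in each set, in asymmetric context above them, and in CG the stages overlap.

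The asymmetric class mixes CHH with cytosines of unknown context, and so the clearest CHH cytosines were looked at on their own. In triple-context windows, 3107 asymmetric cytosines had listed methylcytosines at both of the next positions of their strand, which leaves CHH as the only possible context. Their level, as the mean over cytosines, was 48.6%, 46.9% and 50.5% in the S5 libraries and 42.0% and 40.6% in the S3 libraries. The stage means were 48.6% ± 1.80 (SD, n = 3) and 41.3% ± 0.971 (SD, n = 2), with a difference of 7.30 percentage points (exact permutation p = 0.1). The remaining asymmetric cytosines were at 52.3% at S5 and 47.2% at S3, a difference of 5.16 percentage points. Whether the difference was larger at the certain CHH cytosines was not tested.

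CHG cytosines followed directly by another listed cytosine were much less methylated than the others. The 42496 such cytosines in triple-context windows had 68.8% ± 1.13 (SD, n = 3) at S5 and 71.6% ± 0.375 (SD, n = 2) at S3, a difference of −2.77 percentage points (exact permutation p = 0.2). The other 417648 CHG cytosines had 90.2% ± 0.715 at S5 and 92.1% ± 0.209 at S3, a difference of −1.91 percentage points (exact permutation p = 0.1). All S5 libraries were below both S3 libraries in each of these classes, whose levels are means over cytosines.

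At the level of single windows the asymmetric difference was broad and the CHG difference had a long tail. The asymmetric level was higher at S5 in 92.8% of triple-context windows, with a median difference of 5.08 percentage points (10th to 90th percentile 0.68 to 9.66). CHG level was higher at S5 in 21.1% of them, with a median of −1.89 (−6.12 to 1.13). CG level was higher in 54.6%, with a median of 0.216 (−2.47 to 2.71). Over all windows tested in a context, the medians were 4.99 in asymmetric context (42459 windows), −2.53 in CHG (177639 windows) and 0.282 in CG (265970 windows).

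**Figure D2:**
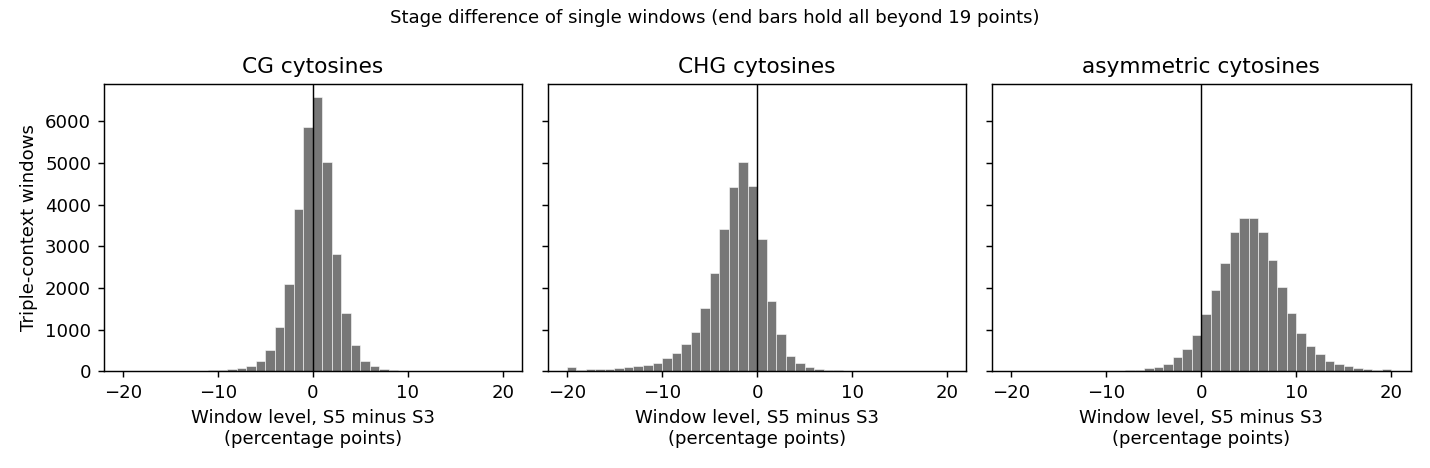
Number of triple-context windows (y axis) by the difference in methylation level, S5 minus S3, in percentage points (x axis, bars of 1 point, with larger differences in the end bars), for each context. The asymmetric distribution is centred near 5.08 and the CHG distribution near −1.89 with a tail to lower values, whereas the CG distribution is centred near 0.216.

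All 3 S5 libraries exceeded both S3 libraries in asymmetric level in 16624 triple-context windows (53.8%), against 51.3% of all windows tested in that context, and all were below in 232 windows (0.75%, against 1.03%). In CHG, all S5 libraries were below in 9742 windows (31.5%, against 33.8%) and above in 881 (2.85%, against 2.79%). In CG, the corresponding numbers were 3977 above (12.9%, against 14.0%) and 2578 below (8.34%, against 9.47%). Triple-context windows are part of the windows tested, and in asymmetric context they are 72.8% of them. The other 11534 windows there were above in 44.7% and below in 1.78%, and whether these shares differ from those of triple-context windows was not tested. A set of 4475 triple-context windows combined a higher asymmetric with a lower CHG level without overlap of the stages, which is 26.9% of those higher in asymmetric context and 45.9% of those lower in CHG. The combination was found in 14.5% of triple-context windows, near the 14.7% of all 36060 windows that met the CHG and asymmetric limits. Across the 30925 windows, the differences in CHG and in asymmetric context were weakly and positively related (Pearson r = 0.203, Spearman rho = 0.211), as were those in CG and CHG (r = 0.241), whereas CG and asymmetric differences were hardly related (r = 0.0456).

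The next comparison asked whether the stage differences inside triple-context windows were those of the genome at large. The rule used the number of listed cytosines in each of the contexts, so the gaps to all other windows are descriptions. Levels in all other windows, as the mean over cytosines listed in every library, were 84.9% at S5 and 88.1% at S3 in CHG, a difference of −3.21 percentage points. CHG level in triple-context windows, as the mean over windows, was above them by 2.37, 2.33 and 2.33 percentage points in the S5 libraries and by 1.46 and 1.44 in the S3 libraries. This gap was 2.35 ± 0.0248 (SD, n = 3) at S5 and 1.45 ± 0.0150 (SD, n = 2) at S3, wider at S5 by 0.898 percentage points without overlap of the stages. The size depends on the kind of mean. With means over cytosines on both sides the gap was 3.34 at S5 and 2.12 at S3 (wider by 1.22), and with means over windows 7.01 at S5 and 5.05 at S3 (wider by 1.97).

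The asymmetric level of triple-context windows was below that of the other windows, and the gap was narrower at S5. It was −3.71, −3.43 and −3.74 percentage points in the S5 libraries and −4.68 and −4.47 in the S3 libraries, a stage difference of 0.944, or of 0.958 with both sides over cytosines and 1.60 with both over windows. Outside triple-context windows the asymmetric level was 56.1% at S5 and 51.9% at S3, a difference of 4.21. In CG the gap was 0.749 ± 0.147 (SD, n = 3) at S5 and 0.867 ± 0.0260 (SD, n = 2) at S3, with overlapping stages. With means over windows on both sides the CG gap was 2.23 at S5 and 2.22 at S3, and over cytosines 0.862 and 0.912, again with overlap.

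A closer counterpart is given by windows that met the same CG and CHG limits but held at most 4 asymmetric methylcytosines (28383 windows). In them CHG level was 78.9% ± 0.926 (SD, n = 3) at S5 and 84.1% ± 0.290 (SD, n = 2) at S3, a difference of −5.21 percentage points. Triple-context windows exceeded them in CHG by 8.37, 8.32 and 8.16 percentage points in the S5 libraries and by 5.38 and 5.40 in the S3 libraries. The gap thus was wider by 2.90 at S5 (exact permutation p = 0.1), and the lower CHG level of mid-maturation was less marked in windows that were also dense in asymmetric methylation. In asymmetric context, these windows had 51.6% at S5 and 49.1% at S3. Their choice by few common asymmetric cytosines depends on asymmetric level in each library, so the asymmetric gap was not tested. The CG gap did not separate the stages (a stage difference of 0.0229, exact permutation p = 0.7). The poorer windows had a median coverage of 13.2 reads and a mean of 8.25 common CHG methylcytosines, against 17.1 to 18.9 reads and 14.7 to 15.1 CHG methylcytosines in triple-context windows. The part of depth and site number in these gaps was not tested.

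When windows were ordered by the number of asymmetric methylcytosines, the stage difference in CHG was largest in size where there were few. It was −5.21 percentage points at 0 to 4, −3.27 at 5 to 9, −2.70 at 10 to 14 and −2.47 at 15 to 19 asymmetric methylcytosines. Within triple-context windows it was −2.30 at 20 to 24, −2.24 at 25 to 29, −2.31 at 30 to 39 and −2.80 at 40 to 123. The CHG difference thus hardly varied inside the chosen range, apart from the 2006 densest windows. The asymmetric difference was 2.54, 3.54, 4.29 and 4.72 in the same steps below the limit and 5.03, 5.22, 5.34 and 5.14 above it. All S5 libraries were below both S3 libraries in CHG, and above them in asymmetric context, at each of the 8 steps. The asymmetric values are a description, since the steps are set by how many asymmetric cytosines passed the call in every library. No step marked the limit of 20, and triple-context windows form the upper end of a gradual series.

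**Figure D3:**
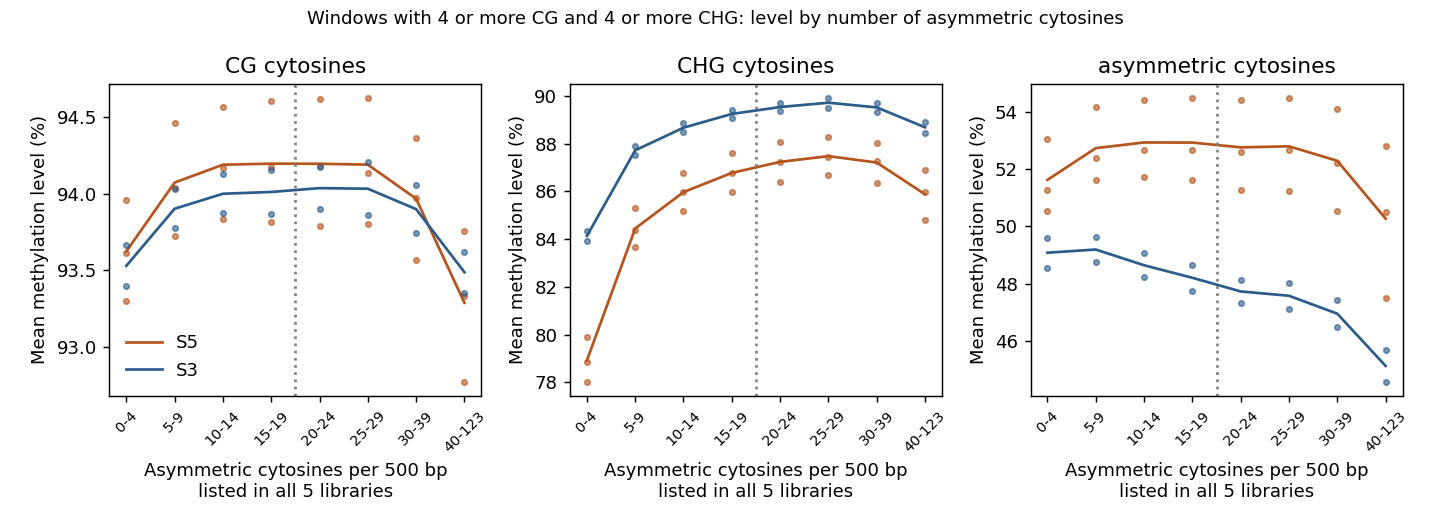
Mean methylation level (%) of windows that met the CG and CHG limits, by their number of asymmetric methylcytosines listed in all 5 libraries (x axis). Lines are stage means (S5 and S3), points are libraries, the dotted line marks the limit of 20, and the y axes do not start at 0. The distance between the CHG lines is −5.21 points at 0 to 4 and −2.24 at 25 to 29, and that between the asymmetric lines is 2.54 and 5.22 at the same steps.

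Windows rich in asymmetric methylcytosines but short of the CG or CHG limit (11534 windows) served as a counterpart from the other side. Their asymmetric level was 57.6% ± 2.56 (SD, n = 3) at S5 and 52.8% ± 0.918 (SD, n = 2) at S3. The gap between triple-context windows and these was −5.05 at S5 and −5.40 at S3, and the stages overlapped (exact permutation p = 0.9). Their CHG level was 84.3% at S5 and 87.6% at S3, and triple-context windows exceeded them by 2.94 ± 0.333 at S5 and 1.94 ± 0.190 at S3, a gap that is a description, as these windows were set apart by their CG and CHG numbers.

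The number of listed methylcytosines, counted in each library whether or not the others listed them, is given as a description, since the rule was set on listing. Triple-context windows held 57.4, 45.7 and 57.1 listed asymmetric cytosines on average in S5 replicates 1, 2 and 3, and 50.2 and 51.6 in S3 replicates 1 and 2. S5 replicate 2 was the lowest of all, so the stages overlapped. It was also the shallowest library, and the part of depth in its lower number was not tested. Listed CHG cytosines numbered 16.8, 16.04 and 16.6 at S5 and 16.9 and 17.0 at S3, and listed CG cytosines 12.8, 12.3 and 12.7 at S5 and 12.8 and 12.9 at S3.

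As the rule asks for cytosines common to all libraries, listing was stable in triple-context windows. Of the 543027 CHG cytosines listed there in any library, 84.7% were listed in all 5, and of the 415121 CG cytosines also 84.7%. Of the 2457960 asymmetric cytosines, only 34.2% were. Cytosines listed in every library of one stage and in none of the other were few. In asymmetric context, 43559 (1.77%) were listed in all S5 and no S3 libraries, and 27266 (1.11%) in all S3 and no S5 libraries. The other windows had the same order, with 2.53% at S5 alone and 1.30% at S3 alone. In CHG the order was turned, with 782 (0.144%) listed at S5 alone and 1626 (0.299%) at S3 alone, as in the other windows (0.739% at S5 alone and 1.22% at S3 alone). In CG, 816 (0.197%) were listed at S5 alone and 1144 (0.276%) at S3 alone, whereas the other windows ran the opposite way, with 0.981% at S5 alone and 0.766% at S3 alone. The stages have unequal numbers of libraries, so these counts are given without a test.

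Triple-context windows occurred on all 8 chromosomes. They made up 2.71% (Ca8) to 5.005% (Ca2) of the windows of a chromosome. The stage difference was of the same kind on each, from −2.97 (Ca8) to −2.14 (Ca5) percentage points in CHG and from 5.02 (Ca8) to 5.38 (Ca5) in asymmetric context, with no overlap of the stages on any of the 8. In CG the stages overlapped on all 8. Along the chromosomes cut into 5 equal parts, triple-context windows formed 3.13%, 4.15%, 5.73%, 4.94% and 4.31% of windows. The highest pooled share was thus in the middle part, but the shares of single chromosomes overlapped widely between parts. They ran from 1.75% to 6.16% in part 1, 2.88% to 6.97% in part 3 and 2.18% to 6.98% in part 4. In bins of 1 Mb, the share had its highest value on Ca6:35000001-36000000, with 227 of 2000 windows (11.35%), and its lowest on Ca3:36000001-37000000, with 14 of 2000 (0.7%).

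Many triple-context windows were adjacent to each other. Of all triple-context windows, 48.1% had another one directly beside them, whereas 6.17% of other windows were next to one. They formed 21904 runs, of which 16038 were single windows, 3885 were pairs and 279 held 5 or more windows. The windows next to them had a mean of 10.6 common asymmetric methylcytosines per window, those at the second position 6.45 and those more than 50 windows away 1.53, against 27.2 in the triple-context windows. CHG methylcytosines numbered 14.9 in the windows themselves, 8.43 beside them and 1.12 at the largest distance, and CG methylcytosines 11.4, 6.58 and 3.30. All windows outside failed the rule, so the step in number from the triple-context windows to their neighbours is partly set by the choice.

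The stage differences varied with distance as well. As means over cytosines, the CHG difference was −1.99 percentage points in triple-context windows, −2.20 in the windows beside them, −2.49 at the second position and −4.23 beyond 50 windows. The asymmetric difference was 5.16 in the windows, 4.74 beside them, 4.33 at the second position and 4.10 beyond 50 windows. The stages did not overlap at any of these distances in either context. Median coverage was 17.3 reads in the windows, 15.6 beside them and 14.5 beyond 50 windows, and its part in the trend was not tested.

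**Figure D4:**
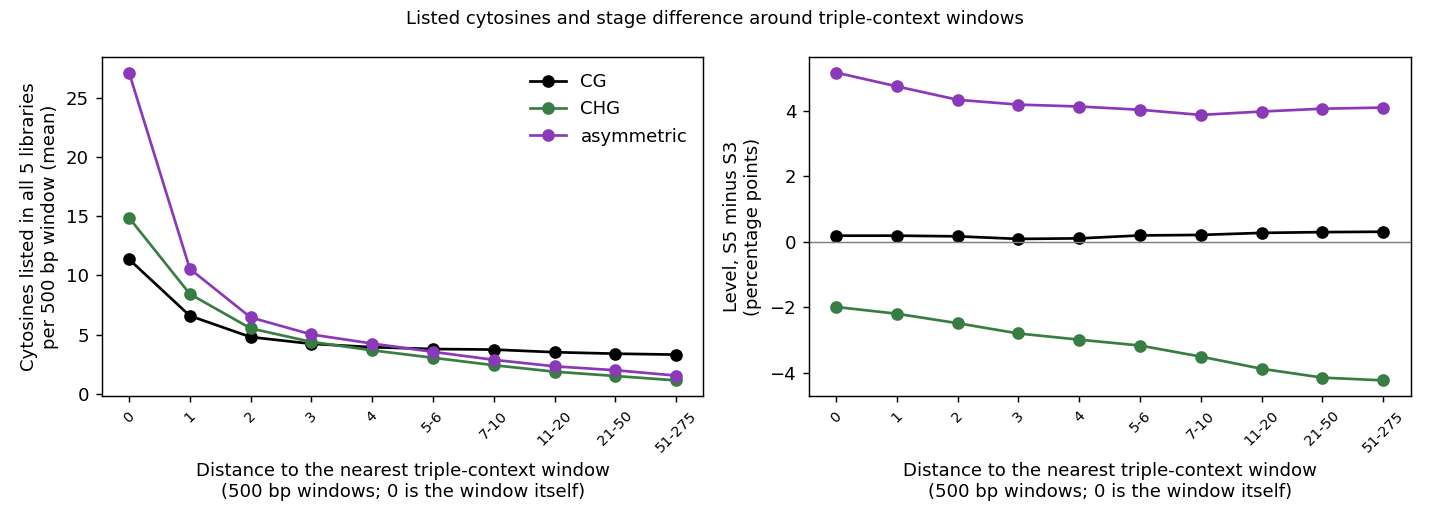
Mean number of methylcytosines listed in all 5 libraries per window (left) and difference in level, S5 minus S3, in percentage points (right), by distance to the nearest triple-context window in units of 500 bp. Lines are contexts. Asymmetric methylcytosines number 27.2 at distance 0 and 10.6 at distance 1, and the CHG difference is −1.99 at distance 0 and −4.23 at the largest distance.

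The 3 longest runs were each of 10 windows and 5000 bp. The run Ca2:17223501-17228500 held 91 CG, 115 CHG and 269 asymmetric methylcytosines. Its asymmetric level was 56.1%, 52.9% and 57.3% in the S5 libraries and 49.4% and 49.5% in the S3 libraries, and its CHG level was 88.2%, 85.7% and 89.3% at S5 and 91.1% and 90.7% at S3. The run Ca3:14805001-14810000 held 125 CG, 107 CHG and 324 asymmetric methylcytosines. Its asymmetric level was 45.4%, 45.7% and 48.6% at S5 and 42.0% and 40.7% at S3, and its CHG level 86.2%, 84.8% and 86.3% at S5 and 88.9% and 89.7% at S3. The run Ca6:27550001-27555000 was the richest in CHG, with 208 CHG beside 99 CG and 337 asymmetric methylcytosines. Its asymmetric level was 59.6%, 61.8% and 60.3% at S5 and 57.6% and 55.2% at S3, and its CHG level 91.9%, 92.5% and 91.6% at S5 and 94.1% and 93.1% at S3. In each run the S5 libraries were above the S3 libraries in asymmetric context and below them in CHG, and the CG levels overlapped.

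A window close to the median of all contexts, Ca2:22229001-22229500, shows what a single window of usual depth resolves. It held 6 CG, 12 CHG and 28 asymmetric methylcytosines at a coverage of 11.7 to 20.1 reads. Its CHG level was 87.7%, 87.5% and 86.8% at S5 and 93.8% and 90.8% at S3, whereas its asymmetric level, at 49.5%, 49.6% and 54.6% at S5 and 48.8% and 50.95% at S3, overlapped between the stages.

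The windows with the most asymmetric methylcytosines were deeply covered. Ca7:30425001-30425500 held 123 of them at 120 to 171 reads, at a level of 14.3%, 11.9% and 16.9% at S5 and 13.2% and 13.7% at S3. Its 6 CHG methylcytosines had 47.0%, 49.0% and 49.0% at S5 and 64.0% and 66.8% at S3, and its 8 CG methylcytosines 84.3%, 86.0% and 84.8% at S5 and 93.6% and 93.2% at S3. Here CG and CHG were lower at S5 and asymmetric level overlapped. Ca8:15685001-15685500 held 109 asymmetric methylcytosines at 110 to 137 reads, with a level of 37.7%, 33.1% and 37.9% at S5 and 24.2% and 23.5% at S3. Its CHG level was 77.7%, 72.2% and 79.2% at S5 and 86.4% and 83.7% at S3. The difference of 12.4 percentage points in asymmetric level stayed under the limit of 25 used for calls.

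The extremes of level fell in windows of unlike depth. By the mean of the 5 libraries, the highest asymmetric level was in Ca5:4629501-4630000, at 95.8%, 93.1% and 93.1% at S5 and 92.4% and 92.5% at S3. The lowest was in Ca1:2422001-2422500, at 9.98%, 10.9% and 11.4% at S5 and 9.06% and 8.21% at S3, where coverage was 378 to 717 reads. Such depth is many times that of the rest, and 1739 triple-context windows (5.62%) exceeded 3 times the median coverage in at least 1 library.

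By that mean, the highest CHG level was in Ca4:22034501-22035000 (99.1% at S5 and 98.9% at S3, 4 CHG methylcytosines) and the highest CG level in Ca2:32813501-32814000 (4 CG methylcytosines, with a T read at none of them in any S5 library and a level of 98.4% at S3). The lowest CHG level by the same mean was in Ca6:49773501-49774000, at 29.4%, 36.4% and 37.4% at S5 and 52.5% and 39.5% at S3. The lowest CG level was in Ca4:41904501-41905000, at 45.5%, 36.8% and 46.2% at S5 and 49.3% and 38.3% at S3. Its 5 CHG methylcytosines were at 94.8%, 96.0% and 93.1% at S5 and 87.5% and 96.1% at S3, so that in this window CHG was far more methylated than CG in every library.

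Asymmetric methylation was found on both strands. Of the common asymmetric methylcytosines in triple-context windows, 50.2% were on the forward strand. The strand with more held a median of 61.5% of those of a window, and 4251 windows (13.7%) had at least 80% on 1 strand. In the 21778 windows with 8 or more on each strand, the level differed between the strands by a median of 8.15 percentage points. The median stage difference was 5.09 on the forward and 5.10 on the reverse strand, and 77.3% of these windows were higher at S5 on both strands, against 2.56% lower on both. Levels of the strands were loosely related across windows (Pearson r = 0.293), and their stage differences still less so (r = 0.194). The windows with at least 80% on 1 strand differed between the stages by 5.37 in asymmetric context and −2.48 in CHG, and the others by 5.12 and −2.29.

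The stage differences kept their sign over the range of levels and depths but changed in size. The asymmetric difference was larger at higher asymmetric level and smaller at higher depth. In 5 equal groups of triple-context windows, from the lowest to the highest asymmetric level, the asymmetric difference was 4.48, 5.02, 5.18, 5.43 and 5.64 percentage points, and the CHG difference −2.93, −2.33, −2.22, −2.01 and −2.09. In 4 groups of like size, from the shallowest to the deepest, the asymmetric difference was 5.59, 5.28, 5.16 and 4.57. The CHG difference was −2.60, −2.22, −2.20 and −2.24 in the same groups. The stages did not overlap in either context in any of these parts. The groups by level were formed from the same asymmetric levels whose difference is given. Level and depth were also inversely related (r = −0.659 with log2 coverage), so these trends are descriptions and were not separated.

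Windows with a large difference were then sought by a logistic regression of methylated and unmethylated reads on stage, with q of 0.01 or less (Benjamini-Hochberg, over every window tested in that context) and a difference of at least 25 percentage points in the pooled level. The study used logistic regression with the same limits, but in shorter sliding windows and with another correction of p. Reads are treated as independent by this test, and a quasi-binomial test was run beside it. That test adds a spread between replicates, drawn towards a value common to the windows of a context. The common value had a weight of 232 degrees of freedom in CG, 76.9 in CHG and 9.63 in asymmetric context. The replicate spread of a single window thus counted little in CG and CHG. Among triple-context windows, 8 were called in CG (0.0259%), against 0.0906% of the 265970 windows tested. In CHG, 29 were called (0.0938%), against 0.414% of the 177639 tested, and in asymmetric context 4 (0.0129%), against 0.0377% of the 42459 tested. The quasi-binomial test called 7, 29 and 3, against 0.0786%, 0.377% and 0.0236% of those tested. In all, 39 triple-context windows (0.126%) were called in any context. Whether the shares differed from those of the other windows was not tested. Coverage and the number of cytosines per window differed between these sets as given above.

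The directions of the calls were uneven. All 29 CHG calls and all 8 CG calls were lower at S5, as were 0.411% and 0.0654% of all windows tested. No triple-context window was called higher at S5 in CG or CHG by either test. The S3 level left little room for a rise of 25 points. Its 1st percentile over triple-context windows was 83.4% in CG, and its 10th percentile was 83.3% in CHG. Such a rise was thus out of reach in most of them, and the absence of called rises is no result about direction. Of all windows tested, logistic regression called 0.0252% higher in CG and 0.00338% in CHG, and the quasi-binomial test 0.0226% and 0.00281%, beside 0.056% and 0.374% lower. At an unadjusted p under 0.05 by logistic regression, without a limit on size, 2098 triple-context windows were higher and 1303 lower in CG. In CHG, 351 were higher and 8029 lower. The share of all windows tested was not counted at this p, so these numbers are a description. The largest differences to a higher level were 14.5 percentage points in CG and 16.1 in CHG, short of the limit of 25. In asymmetric context 3 were called higher (0.0236% of those tested) and 1 lower (0.0141%), of which the quasi-binomial test kept 2 and 1, with 0.0118% of those tested called in each direction. With q of 0.01 or less and no limit on size, 13767 triple-context windows (44.5%) were higher at S5 in asymmetric context and 145 lower, against 44.2% and 0.888% of those tested. In CHG, 1890 were lower (6.11%, against 7.56%) and 15 higher (against 0.0687%). In CG, 42 were higher and 90 lower, against 0.521% and 0.568%.

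Calls in asymmetric context among triple-context windows varied in number when single libraries were left out. They numbered 4 with all libraries, 17 without S5 replicate 2 (16 higher), 15 without S3 replicate 1 (14 higher), 14 without S3 replicate 2 (13 higher), 7 without S5 replicate 1 (6 higher) and 4 without S5 replicate 3 (2 higher). CHG calls numbered 44 without S3 replicate 2 and 24 to 41 when any other library was left out, all lower at S5. CG calls numbered 7 without S3 replicate 1, of which 2 were higher at S5, and 7 to 10 when any other library was left out, all lower. Calls among all windows tested were not counted with a library left out, so no share stands beside these numbers.

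The 29 CHG calls were spread over all 8 chromosomes, with pooled differences of −25.1 to −42.1 percentage points, and had a median level of 54.0% at S5 and 84.4% at S3. In 9 of these windows all S5 libraries were below both S3 libraries in asymmetric context too, in 4 they were above, and in 16 they overlapped. CG level was below in 11 and overlapped in 18. The 8 CG calls lay on 6 chromosomes, with differences of −25.3 to −33.1, and had a median CG level of 59.6% at S5 and 87.7% at S3. CHG was below in 4 of them and overlapped in 4, and asymmetric level was above in 3 and overlapped in 5. Among all triple-context windows, asymmetric level was below without overlap in 0.75% and above in 53.8%. CHG level was below in 31.5% of them and CG level in 8.34%. Whether the called windows differed from these shares was not tested.

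The 2 largest CHG falls by pooled reads were 21000 bp apart on Ca3. By the mean over cytosines, the largest was in Ca4:1208501-1209000, named after its values were seen, where 15 CHG methylcytosines had 54.2%, 43.7% and 66.8% at S5 and 90.6% and 93.8% at S3. In Ca3:9933001-9933500, with 7 CHG methylcytosines at 11.6 to 17.1 reads, CHG level was 39.4%, 43.2% and 61.7% in the S5 libraries and 82.5% and 87.6% in the S3 libraries (q = 2.43e-18, quasi-binomial q = 1.05e-08). Its 27 asymmetric methylcytosines had 33.7%, 32.4% and 40.4% at S5 and 63.5% and 66.1% at S3 (q = 4.22e-31, quasi-binomial q = 0.000998), which was the only asymmetric call to lower levels. Its CG level was 88.6%, 85.9% and 89.3% at S5 and 94.5% and 86.8% at S3 and was not called. In Ca3:9954001-9954500, with 6 CHG methylcytosines, CHG level was 48.1%, 43.99% and 56.1% at S5 and 81.0% and 91.3% at S3 (q = 2.76e-14, quasi-binomial q = 2.36e-07). Its asymmetric level was 29.3%, 23.6% and 33.7% at S5 and 49.0% and 52.0% at S3, a pooled difference of −23.0 that missed the limit of 25. Both Ca3 windows were thus lower at S5 in CHG and also in asymmetric context, where 92.8% of triple-context windows were higher.

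In the windows with the largest CG falls by pooled reads, asymmetric level was higher or overlapped between the stages. In Ca2:32759501-32760000, 4 CG methylcytosines at 11.9 to 14.9 reads had 56.9%, 40.1% and 48.9% in the S5 libraries and 87.8% and 74.1% in the S3 libraries (q = 1.77e-07, quasi-binomial q = 0.000106). Its 26 asymmetric methylcytosines had 62.4%, 59.5% and 59.2% at S5 and 51.5% and 48.5% at S3, without overlap. In Ca7:36878501-36879000, 4 CG methylcytosines had 47.3%, 56.7% and 47.5% at S5 and 84.4% and 78.2% at S3 (q = 2.14e-07, quasi-binomial q = 0.000104). Its asymmetric level was 57.3%, 40.8% and 55.7% at S5 and 41.4% and 40.9% at S3, where S5 replicate 2 lay just below the S3 libraries. CHG levels overlapped between the stages in both windows.

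The asymmetric rises showed no common pattern in the symmetric contexts. In Ca1:42212001-42212500, 24 asymmetric methylcytosines had 77.3%, 77.2% and 81.6% in the S5 libraries and 53.4% and 53.8% in the S3 libraries (q = 4.96e-22, quasi-binomial q = 0.00314). CHG level was also higher there, at 88.2%, 87.1% and 88.3% at S5 and 80.1% and 75.2% at S3, and CG level was 97.9% to 99.2% at S5 and 97.3% and 99.4% at S3. In Ca7:14675001-14675500, 26 asymmetric methylcytosines had 86.0%, 63.4% and 74.7% at S5 and 51.2% and 48.0% at S3 (q = 1.63e-28, quasi-binomial q = 0.0099), while CHG level overlapped, at 75.7%, 69.7% and 58.4% at S5 and 73.4% and 69.9% at S3. The third, Ca8:15001001-15001500, is given for completeness after its values were seen. It had 63.9%, 48.1% and 67.8% at S5 and 38.0% and 36.8% at S3 and was called by logistic regression only. In the last 2 windows S5 replicate 2 had the lowest level of its stage.

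**Figure D5:**
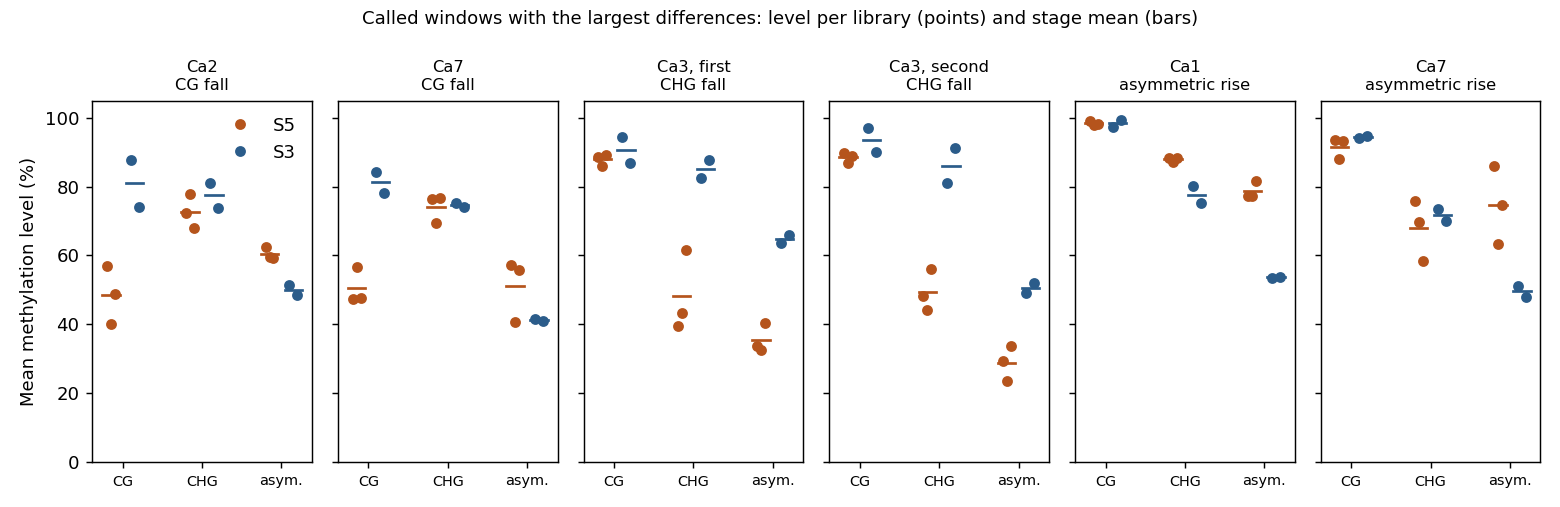
Methylation level (%) in CG, CHG and asymmetric context in the 6 called triple-context windows with, by pooled reads, the largest falls in CG (Ca2, Ca7), the largest falls in CHG (2 windows of Ca3) and the largest rises in asymmetric context (Ca1, Ca7). Points are libraries (S5 left, S3 right) and bars are stage means. The Ca3 windows are lower at S5 in CHG and asymmetric context, at 48.1% and 35.5% in the first, against 85.1% and 64.8% at S3.

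A single triple-context window, Ca3:4688501-4689000, was called in both CG and CHG, and is named after its values were seen. Its 8 CG methylcytosines had 71.8%, 70.9% and 69.9% in the S5 libraries and 95.3% and 93.1% in the S3 libraries. Its 15 CHG methylcytosines had 33.6%, 30.5% and 31.1% at S5 and 67.2% and 64.0% at S3. Its 21 asymmetric methylcytosines had 36.9%, 24.8% and 31.5% at S5 and 27.2% and 25.5% at S3 and overlapped. Replicates of a stage lay close together in the symmetric contexts of this window, whose mean coverage was 51.3 reads.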

How the data were processed

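Genomic DNA of Himchana 1 seeds at S5 (3 replicates) and S3 (2 replicates) was compared, with groups and replicate numbers taken from the labels. The authors filtered reads, aligned them to the kabuli genome with Bismark 0.14.3 (the labels also name methylKit 0.9.2), and called a methylcytosine where at least 5 reads gave a binomial p of at most 0.0001. The deposited files list these calls only, with coverage as a count of reads and methylation as the percent of reads that kept C. Replicates were deposited separately. Percent times coverage gave whole methylated reads at 100% of positions, within 0.005 percentage points of the deposited percent. Positions given on more than 1 line were left out. Absence from a list means low coverage or no call, and at low depth weakly methylated cytosines are missed more often.

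Levels are means over windows of the mean over cytosines listed in all 5 libraries, with some exceptions. Means over cytosines were used for the other windows, the distances, the longest runs and the classes within CHG and asymmetric context. The library was the replicate, and the stage means were tested by exact permutation (two-sided, 10 arrangements). Depth per library limits single sites to steps of 1 read in 5 or more. Windows were tested by logistic regression (likelihood ratio, Benjamini-Hochberg over all windows with 4 CG, 4 CHG or 20 asymmetric cytosines) and by a quasi-binomial test moderated with limma 3.58.1 in R 4.3.3. Tests were tried on simulated data. Python 3.11.15, NumPy 2.4.6, SciPy 1.17.1 and pandas 2.3.3 were used.

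Windows named were the 3 longest runs, the 2 with most asymmetric cytosines, the one nearest the medians, the highest and lowest level per context, the 2 largest called differences per context and direction without overlap of the stages, and the 1 Mb bins of highest and lowest share. Others are said to be chosen after their values were seen. The set of windows, the limits and the counterparts were chosen with earlier results of these data known. Alternatives were other limits, 10 or more reads, stricter partners, shifted windows, pooled reads, certain CHH cytosines alone and deep windows left out. Further ones were each replicate left out, a replicate block, and other call limits.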

Additional observations from a re-analysis of the deposited data

How the results depend on the processing

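The number of triple-context windows, 30925, followed the limits: it was 6313 with 6 CG, 6 CHG and 30 asymmetric cytosines, 58984 with 3, 3 and 15, and 7532 when every cytosine needed 10 or more reads in all 5 libraries. The CHG level difference (S5 minus S3) kept its sign under 12 alternatives, from −2.73 to −1.89 percentage points, and the asymmetric level difference under 13, from 4.27 to 7.25. The value of 7.25 was that of the certain CHH cytosines alone, and the highest under the other alternatives was 5.97, without S5 replicate 2. The gap of triple-context windows to other windows stayed wider at S5 in CHG under 14 alternatives (0.746 to 1.97), and its asymmetric stage difference positive under 14 (0.378 to 1.60). The CHG gap to windows poor in asymmetric cytosines was wider at S5 by 2.296 to 3.48 percentage points under 12.

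CG values near 0 changed sign. The CG level difference ranged from −0.0944 to 0.320 when single replicates were left out. The stage difference of the CG gap to the poor windows was −0.0834 with limits of 6, 6 and 30 and −0.00185 with 10 or more reads. Without single replicates it was −0.0209 to 0.0639. For the CG gap to other windows, the stage difference was 0.141 from pooled reads and 0.0110 with both sides as means over windows. The latter alternative was chosen after seeing the data.

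With 10 or more reads, 0 CG, 6 CHG and 0 asymmetric windows were called. A limit of 15 percentage points gave 29, 246 and 392 calls, of which 0, 1 and 387 were higher at S5, and one of 40 points 0, 1 and 0. Without single replicates there were 7 to 10 CG, 24 to 44 CHG and 4 to 17 asymmetric calls. Calls among all windows tested were not counted under these alternatives or with the replicate block below. The cause of these shifts was not tested beyond what fewer cytosines, fewer libraries or another limit bring by construction.

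The labels do not say that equal replicate numbers mark a shared batch, and deviations of same-numbered libraries were hardly correlated (r within ±0.0381 over windows). With a replicate block over replicates 1 and 2, which leaves out S5 replicate 3, the CG level difference was −0.0944. The stage difference of the CG gap to the poor windows was −0.0209, and calls numbered 10 in CG, 40 in CHG and 3 in asymmetric context. Other directions were as without the block.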

Other observations

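The surroundings of the 2 large CHG falls on Ca3 were looked at after their values were seen. Of the 41 windows between them, 10 held 4 or more CHG methylcytosines listed in all libraries, and the CHG differences of these 10 (S5 minus S3) ran from −18.6 to 1.26 percentage points with a median of −3.04. The window directly after the second fall, Ca3:9954501-9955000, is no triple-context window, as it held 3 common asymmetric methylcytosines. Its 4 CHG methylcytosines had 40.03%, 39.99% and 53.5% in the S5 libraries and 94.7% and 94.5% in the S3 libraries, so the low level at S5 continued past the window border.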
